A study of Mus musculus with 4 samples.

Results

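The Notch pathway was followed through 32 genes in RNA from the mouse cochleovestibular ganglion (CVG), which holds the newly formed auditory and vestibular sensory neurons, at embryonic day 11.5. The genes were taken by symbol from a list of Notch receptors, ligands, modulators and Hes and Hey genes, and they are 32 of the 25239 gene symbols in the tables. All 32 were found on a single row in every table, and all were among the 15049 genes that entered the comparisons, which needed 1 TPM (a transcript abundance that takes account of gene length and sums to the same total in every library) in at least 1 library. There were 4 libraries, 1 from each labelled genotype: control, Isl1CKO, Pou4f1KO and DKO. The label Pou4f1KO was taken to mean loss of Pou4f1, Isl1CKO conditional loss of Isl1, and DKO both together. ISL1 and POU4F1 are homeodomain transcription factors of early sensory neurons, and the series title places the study on their joint control of inner ear neuron differentiation and survival. The Cre driver, the alleles, the genotype of the control embryos and the number of embryos in a library are not given in the sources used here. By label the material is CVG neurons, but the protocol describes whole dissected ganglia, so each library is a bulk sample. Each genotype has a single library, so replicate error is unknown and no test or p-value could be computed for any difference below.

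Notch signalling passes between touching cells. A Delta or Jagged ligand on 1 cell binds a Notch receptor on its neighbour, the receptor is cut first by an ADAM protease and then by gamma-secretase, and the freed intracellular domain joins the DNA-binding protein RBPJ and a Mastermind co-activator to switch on Hes, Hey and other target genes. Fringe glycosyltransferases add sugars to the receptor and so tune which ligands activate it. In the developing inner ear the pathway is known for lateral inhibition, in which cells that become neurons express Delta ligands and hold their neighbours in a progenitor state, and for a Jagged1-dependent role in the prosensory epithelium.

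The promoter sequences of Hes5, Lfng and Hey2 are shown because Hes5 and Lfng carry the largest differences described below and because each of the 3 windows holds TGGGAA, the core of the RBPJ binding site, on both strands. Each runs from 250 bases before to 50 bases after the RefSeq start site (GRCm38.p6, the mm10 assembly), 5′ to 3′ on the gene's strand, and the capitals mark TGGGAA or its reverse complement TTCCCA. The windows are chr4:154960673-154960972 on the plus strand for Hes5, chr5:140607091-140607390 on the plus strand for Lfng and chr10:30842734-30843033 on the minus strand for Hey2.
Hes5: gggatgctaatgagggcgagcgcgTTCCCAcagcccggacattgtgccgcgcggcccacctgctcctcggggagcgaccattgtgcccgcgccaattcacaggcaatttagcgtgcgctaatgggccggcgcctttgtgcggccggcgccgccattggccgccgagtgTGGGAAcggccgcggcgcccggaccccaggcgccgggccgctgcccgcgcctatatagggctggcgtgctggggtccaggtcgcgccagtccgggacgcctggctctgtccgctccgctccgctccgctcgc
Lfng: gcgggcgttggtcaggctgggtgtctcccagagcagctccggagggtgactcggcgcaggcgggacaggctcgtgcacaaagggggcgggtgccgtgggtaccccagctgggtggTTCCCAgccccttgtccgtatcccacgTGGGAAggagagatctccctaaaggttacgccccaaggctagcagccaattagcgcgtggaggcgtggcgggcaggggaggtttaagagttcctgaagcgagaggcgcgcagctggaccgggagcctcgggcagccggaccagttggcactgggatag
Hey2: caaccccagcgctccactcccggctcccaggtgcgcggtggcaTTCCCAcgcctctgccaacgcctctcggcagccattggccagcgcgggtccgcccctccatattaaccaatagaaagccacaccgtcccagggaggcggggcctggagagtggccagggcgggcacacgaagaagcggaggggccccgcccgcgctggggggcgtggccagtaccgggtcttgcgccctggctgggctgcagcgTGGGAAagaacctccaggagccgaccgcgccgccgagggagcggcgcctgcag
In Hes5 the first bases of the matches lie at −226 and −82 relative to the start site, in Lfng at −135 and −108, and in Hey2 at −207 and −3. Rbpj (also on both strands), Maml2 and Maml3 hold a match as well. That makes 6 of the 26 members with a promoter in the RefSeq table (23.1%), against 8397 of all 32851 promoters of the same length (25.6%). The start sites used for Rbpj and Maml2 lie 34567 and 42471 bases from the start of the gene as deposited. The N-box letters CACNAG, a sequence bound by Hes proteins, were found in 9 of the 26 (34.6%) against 42.5% of all promoters, searched on both strands. The homeodomain core TAATTA was found in 0 of the 26, against 5.29% of all promoters, whose median GC content was 52.7% against 63.5% in the members. A match describes letters in the window and is no evidence of binding. The promoters of Hes1, Hey1, Heyl, Mfng, Dtx3 and Dtx4 were not searched.

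The libraries were of similar depth, with 13.6 to 16.6 gigabases of aligned sequence, and 1 TPM corresponded to a mean read depth of 4.95 to 5.93 over a gene. Pou4f1 went with its labels, at 146 (control) and 188 TPM (Isl1CKO) against 16.6 (Pou4f1KO) and 14.6 TPM (DKO). Isl1 did not go with its labels and had a level of 450 TPM in the control library, then 854 (Isl1CKO), 340 (Pou4f1KO) and 579 TPM (DKO). Where the conditional allele is cut is not given, and a level over the full gene can miss that part, so the Isl1 labels are unchecked. The names Isl1CKO and DKO mean the libraries so labelled. The 8 sensory neuron markers summed to 5901 to 7212 TPM, most of it from Tubb3 and Stmn2, and they were not all high. Ntrk3 was at 14.7 (control), 8.87 (Isl1CKO), 14.7 (Pou4f1KO) and 7.07 TPM (DKO). Prph was at 162, 112, 119 and 61.2 TPM in the same order. In DKO against control, 4 of the 8 were higher and 4 lower. Markers of other cells were also present. The 8 otic epithelium markers summed to 568 TPM (control), 365 TPM (Isl1CKO), 162 TPM (Pou4f1KO) and 135 TPM (DKO). Of 9 neural progenitor and neural tube markers, 8 reached 1 TPM in Pou4f1KO and 2 in each other library. The library labelled Pou4f1KO therefore stands apart in neural tube genes, and both libraries with the Pou4f1 label are low in otic epithelium genes. In a bulk sample, fewer cells of a type and less RNA per cell cannot be told apart.

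Every member was expressed. All 32 reached 1 TPM in all 4 libraries, from Dll4, the lowest in each library (1.59 to 2.62 TPM), to Hes6, the highest in each (256 to 321 TPM). The median member was at 30.0 TPM in control, against 22.7 TPM for all compared genes. The highest and lowest libraries were less than 1.5-fold apart for 23 of the 32 members (71.9%, against 74.8% of all compared genes) and less than 2-fold apart for 29 (90.6%, against 87.5%), so both shares were near those of all genes. The 3 members that spread at least 2-fold were Hes5 (8.36-fold), Lfng (2.77-fold) and Dll1 (2.32-fold). Another 6 lay between 1.5-fold and 2-fold, and these were Dll3, Dll4, Dner, Mfng, Hey2 and Dtx4.

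**Figure D1:**
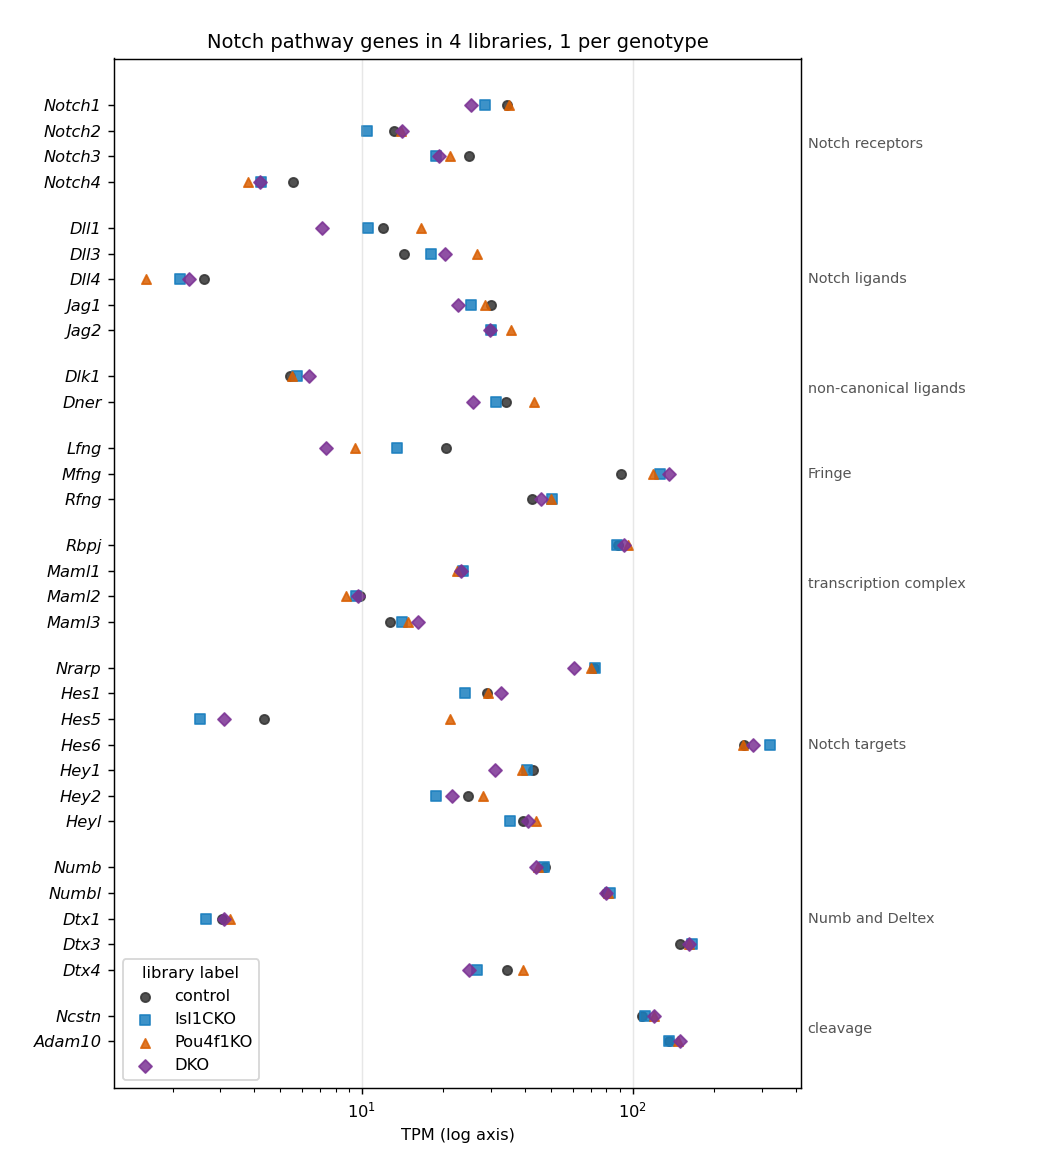
TPM of each of the 32 members (rows, grouped by role) in the 4 libraries (points, coloured by genotype label) on a log axis. Points of most members lie close together, while the Pou4f1KO point of Hes5 (21.1 TPM) is far from its other 3 (2.52 to 4.36 TPM).

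The members past 2-fold were Hes5, Lfng and Dll1, each in 1 or 2 of the 5 comparisons. Differences are given as log2((TPM + 1) / (TPM + 1)), a scale that understates those of weakly expressed genes, and a gene was called past 2-fold at a size of 1 or more. In Isl1CKO against control, 0 of 32 members were past 2-fold, where 1.20% of all compared genes were, and 1 (Hes5, lower) was past 1.5-fold, where 5.41% were. In Pou4f1KO against control, Hes5 was 2-fold higher and Lfng 2-fold lower, 2 of 32 where 2.70% of all genes were called. Dll3 joined them at 1.5-fold, where 7.68% of all genes were past that size. In DKO against control, 1 member (Lfng, lower) was past 2-fold, where 3.35% of all genes were, and Mfng (higher) and Dll1 (lower) were added at 1.5-fold, where 8.92% were. The members' median log2 ratios were −0.06, 0.08 and −0.01, against −0.02, 0.02 and −0.01 for all genes. Libraries were also scaled by the median of gene ratios and so that 28 pan-neuronal genes were level, and the latter turned the median of Pou4f1KO to −0.15. The Lfng call in Pou4f1KO was lost with a pseudocount of 5 (log2 ratio −0.82) and with FPKM (−0.95). All 3 comparisons share the control library.

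**Figure D2:**
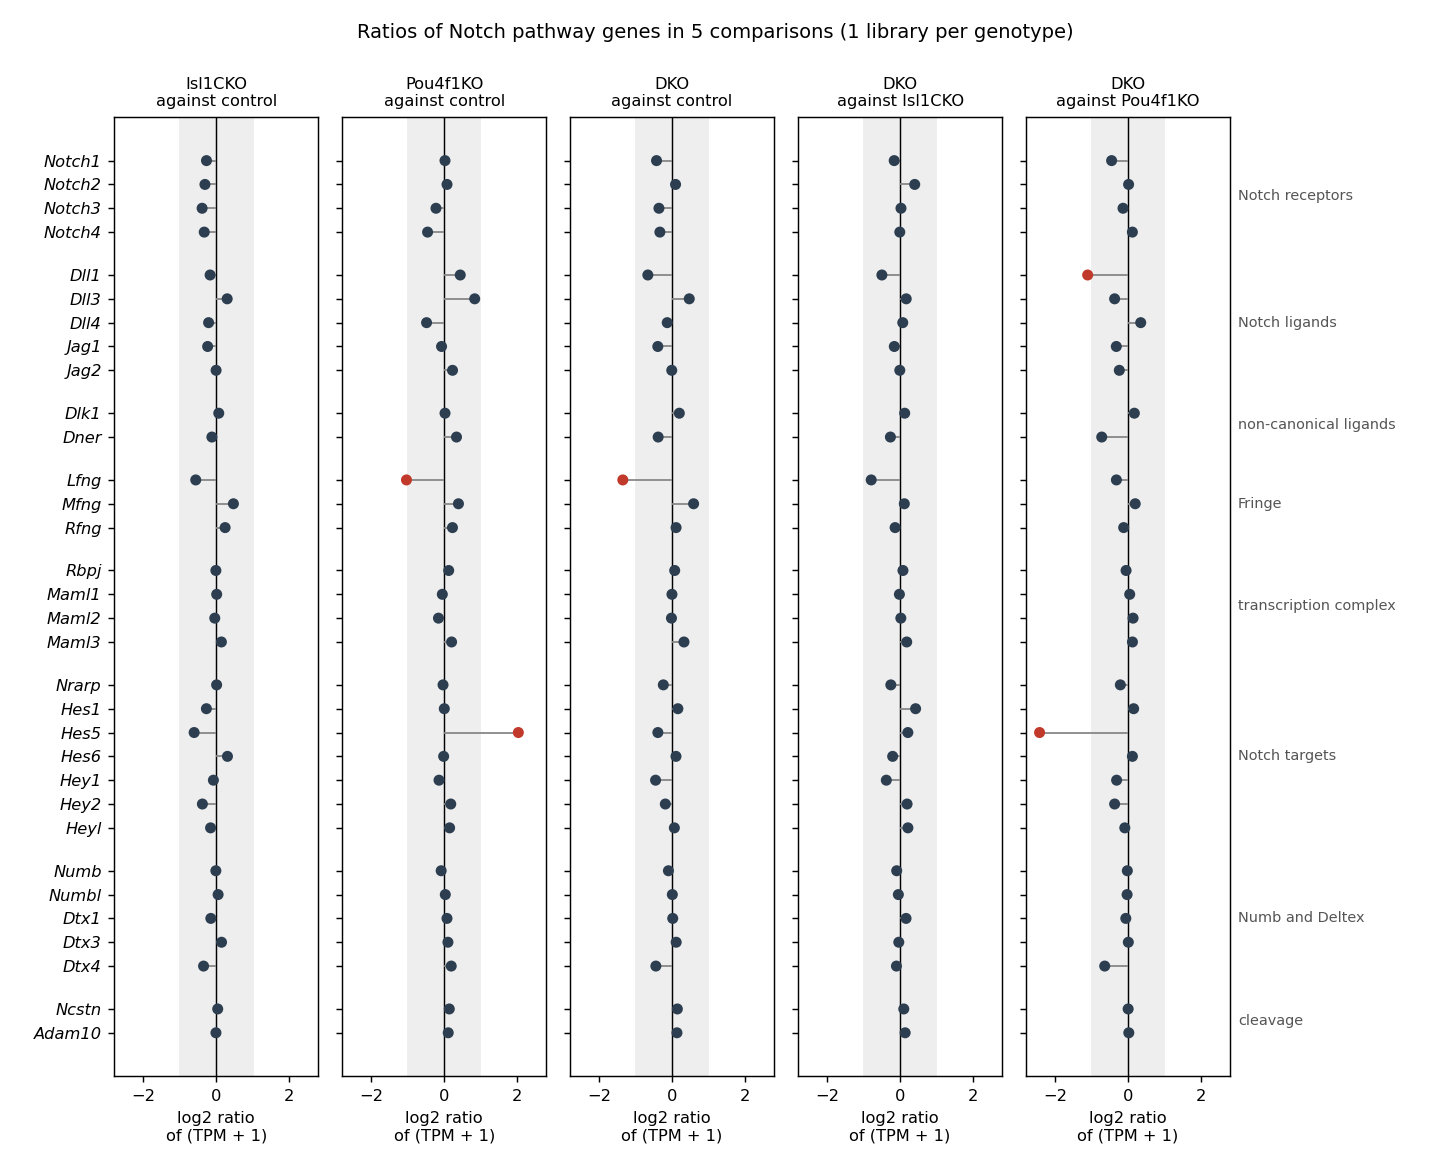
Log2 ratio of (TPM + 1) for each of the 32 members (rows, by role) in the 5 comparisons of 2 libraries (panels), with the band within 2-fold in grey and points past it in red. Red points are Hes5 and Lfng in Pou4f1KO against control, Lfng in DKO against control, and Hes5 and Dll1 in DKO against Pou4f1KO.

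Against the single mutants, the library labelled DKO differed in fewer members from Isl1CKO than from Pou4f1KO. In DKO against Isl1CKO, 0 of 32 were past 2-fold, where 2.10% of all genes were, and Lfng alone was past 1.5-fold (log2 ratio −0.79), where 6.77% were. In DKO against Pou4f1KO, Hes5 and Dll1 were past 2-fold, where 1.76% of all genes were. Dner and Dtx4 joined them at 1.5-fold, where 6.12% were, and all 4 were lower in DKO. The Dll1 call was lost with a pseudocount of 5 (−0.83), with FPKM (−0.92) and with pan-neuronal scaling (−0.94). Whether the 2 comparisons differ was not tested, and both share the DKO library.

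Among the target genes, Hes5 differed most. Hes5 encodes a bHLH repressor of neural and other progenitors that is a direct Notch target, and lies on mm10 chromosome 4 from 154960923 to 154962371 on the plus strand, with up to 3 exons in GENCODE M21. It had a level of 4.36 TPM in the control library, then 2.52 (Isl1CKO), 21.1 (Pou4f1KO) and 3.09 TPM (DKO), and the mean read depth over the gene was 25.8, 12.4, 122 and 17.9 in the same order. Pou4f1KO was the high library, and among the other 3, all under 5 TPM, Isl1CKO was lowest. The log2 ratio of Pou4f1KO to control was 2.04, a 4.83-fold difference in TPM. That of DKO to Pou4f1KO was −2.43, a 6.83-fold difference. Among all 15049 compared genes Hes5 was the 24th from the highest in the first comparison and the 15th from the lowest in the second. Hes5 made up 42.0% of the summed TPM of Hes1 and Hes5 in Pou4f1KO and 8.66% to 13.1% in the other libraries.

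The neural tube markers shared the high Pou4f1KO level of Hes5. Of the 8 measured members of that list, 6 were at least 2-fold higher in Pou4f1KO than in control and 0 were lower (median log2 ratio 2.10). In DKO against Pou4f1KO, 7 of 8 were at least 2-fold lower, with a median of −2.11. Of all compared genes, 2.70% and 1.76% were past 2-fold in these comparisons, in this order. Only 2 of the markers reached 1 TPM in each other library, so most were compared only because of their Pou4f1KO level. That filter favours both counts and both medians, and the list was chosen with earlier results known, so they are descriptions only. Olig3, a dorsal neural tube factor, had a level of 0.45 TPM in the control library, then 0.80 (Isl1CKO), 13.9 (Pou4f1KO) and 0.54 TPM (DKO). Hoxd3 and Msx3, both expressed in the neural tube, had log2 ratios of 3.26 and 2.32 in Pou4f1KO against control. The whole list summed to 245 TPM (control), 231 TPM (Isl1CKO), 350 TPM (Pou4f1KO) and 240 TPM (DKO), and most of this was Fabp7, which is also a glial gene. Without Fabp7 the sums were 4.47, 3.33, 49.0 and 4.39 TPM, and Pax7 was listed at 0 in Isl1CKO and DKO. The part of such cells in the Hes5 level was not tested.

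The other target genes lay within 1.5-fold of control in each mutant library. Hes1, the second main Hes effector, had a level of 29.1 TPM in the control library, then 24.0 (Isl1CKO), 29.2 (Pou4f1KO) and 32.6 TPM (DKO), so it did not share the high Pou4f1KO value of Hes5. Values from here on are in the order control, Isl1CKO, Pou4f1KO and DKO. Hey2, a hairy-related repressor, was at 24.7, 18.7, 28.1 and 21.6 TPM, with both libraries that carry the Isl1 label below the other pair. Hey1 was at 43.0, 40.7, 38.9 and 31.1 TPM, and its lowest level, in DKO, gave a log2 ratio of −0.45 to control. Heyl, the third Hey gene, was at 39.3, 35.3, 43.8 and 41.1 TPM. Nrarp, a target that acts back on the receptor's intracellular domain as an inhibitor, was at 71.8, 72.4, 70.2 and 60.5 TPM. Hes6, which encodes an antagonist of Hes1 and is expressed in differentiating neurons, was the most abundant member and highest in Isl1CKO (258, 321, 256 and 278 TPM). Hes6 made up 61.4% to 72.6% of the summed TPM of the Hes and Hey members. Of the 7 genes in this group, Hes5 was the only one past 2-fold in any comparison.

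Ligand genes differed mainly in the Delta branch. Dll1 (chromosome 17, 15367354 to 15375823, minus strand, up to 11 exons), the ligand of lateral inhibition during neurogenesis, had a level of 11.9 TPM in the control library, then 10.5 (Isl1CKO), 16.6 (Pou4f1KO) and 7.14 TPM (DKO). It was highest in Pou4f1KO and lowest in DKO, with a log2 ratio between them of −1.11, or 2.32-fold in TPM. Dll3 (chromosome 7, 28293555 to 28301785, minus strand, up to 9 exons), a divergent Delta that acts within the cell as an inhibitor, was at 14.4, 18.0, 26.5 and 20.3 TPM. All 3 mutant libraries were above control for Dll3, under each of the 3 scalings, with log2 ratios of 0.30, 0.84 and 0.47. The share of Dll3 in the summed TPM of the 5 ligand genes was 16.1%, 20.9%, 24.4% and 24.7% in this order of libraries, and that of Dll1 was 13.4%, 12.2%, 15.3% and 8.69%.

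Dll4, an endothelial ligand that is also made by some neural progenitors, was at 2.62, 2.13, 1.59 and 2.30 TPM, the lowest member throughout. Jag1, the prosensory Jagged ligand, was at 30.0, 25.4, 28.5 and 22.6 TPM, with control highest and DKO lowest. Jag2 was at 30.0, 30.0, 35.4 and 29.8 TPM and so differed by at most 1.19-fold. Dner, a transmembrane neuronal protein described as a non-canonical ligand, was at 34.0, 31.3, 43.3 and 25.8 TPM, again highest in Pou4f1KO and lowest in DKO (log2 ratio −0.72). Dlk1, a Delta-like protein without the Notch-binding DSL motif, was at 5.43, 5.75, 5.53 and 6.37 TPM. Ligand genes therefore included 3, Dll1, Dll3 and Dner, with their highest level in Pou4f1KO and spreads above 1.5-fold.

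Proneural bHLH genes were set beside the ligands, since proneural factors are known activators of Delta genes. Neurog1, which specifies inner ear neurons, had a level of 16.3 TPM in the control library, then 10.5 (Isl1CKO), 17.5 (Pou4f1KO) and 6.74 TPM (DKO), the same order of libraries as Dll1. Of a list of 14 genes (proneural and neuronal bHLH genes, Insm1 and the proneural inhibitors Id1 to Id4), 6 were at least 2-fold higher in Pou4f1KO than in control, among them Atoh1 (log2 ratio 2.45), Neurog2 (2.20) and Neurod2 (1.47). Of all compared genes, 2.70% were past 2-fold either way there. Neurod2 was at 6.82, 19.5, 20.6 and 30.4 TPM, so it was above control in every mutant library and highest in DKO. Atoh1 was at 0.19, 0.41, 5.51 and 0.35 TPM, so Pou4f1KO alone was above 1 TPM and alone brought it into the comparisons. In DKO against Pou4f1KO, 4 of the 14 were at least 2-fold lower, where 1.76% of all genes were past 2-fold either way. Among the 4 were Atoh1, Neurog2 and Neurog1, with log2 ratios of −2.27, −1.28 and −1.26. Atoh1 and Neurog2 are also expressed in the neural tube, whose markers were high in Pou4f1KO, and the part of neural tube cells in these levels was not tested.

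All 4 receptor genes were below control in Isl1CKO under each scaling, with a median log2 ratio of −0.32, where 56.5% of all compared genes were below control. With TPM as deposited none was past 1.5-fold in any comparison, and with pan-neuronal scaling Notch4 was at −0.66 in Pou4f1KO against control. Notch1 (chromosome 2, 26457902 to 26503822, minus strand, up to 34 exons), the main receptor of neurogenesis, had a level of 34.4 TPM in the control library, then 28.4 (Isl1CKO), 35.0 (Pou4f1KO) and 25.3 TPM (DKO), so both libraries with the Isl1 label were below the other pair. It overlaps Mir6996 on the same strand, so its reads cannot all be assigned with certainty, and the same holds for Jag2 with Mir6941. Notch2 was at 13.1, 10.4, 13.9 and 14.1 TPM, with Isl1CKO alone lower. Notch3, a receptor known from mural cells and also expressed by neural progenitors, was at 25.0, 18.8, 21.2 and 19.2 TPM. Notch4, an endothelial receptor, was at 5.56, 4.22, 3.78 and 4.20 TPM, highest in control. Summed over the 4 genes the level was 78.0 TPM (control), 61.9 TPM (Isl1CKO), 73.9 TPM (Pou4f1KO) and 62.8 TPM (DKO). Notch1 made up 40.3% to 47.3% of it.

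Markers of vessel and connective tissue cells also differed between these libraries. All 6 endothelium markers were below control in Isl1CKO (median log2 ratio −0.42), and the list summed to 78.8, 56.7, 72.2 and 94.7 TPM with none at 0. The 4 mesenchyme markers summed to 73.1, 45.4, 58.2 and 93.5 TPM. The 4 mural markers summed to 15.5, 12.8, 14.1 and 21.9 TPM, but in Isl1CKO 2 of them were above control and 2 below, with a median log2 ratio of −0.06. The endothelium, mesenchyme and receptor sums were all lowest in Isl1CKO, whereas DKO was highest for both marker lists and not for the receptors. The part of these cells in the receptor levels was not tested.

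The Fringe genes differed in their proportions. Lfng (chromosome 5, 140607341 to 140615545, plus strand, up to 8 exons), which encodes Lunatic fringe, had a level of 20.5 TPM in the control library, then 13.5 (Isl1CKO), 9.47 (Pou4f1KO) and 7.38 TPM (DKO). All 3 mutant libraries were below control, and the pair with the Pou4f1 label was lowest. The log2 ratios to control were −0.56, −1.04 and −1.36, the last being 2.77-fold in TPM and the 162nd from the lowest among all compared genes. Mfng, which encodes Manic fringe, went the other way, at 90.4, 126, 119 and 137 TPM, with log2 ratios to control of 0.47, 0.39 and 0.59. Rfng, Radical fringe, was at 42.4, 50.5, 49.9 and 45.8 TPM. Lfng made up 13.4%, 7.13%, 5.31% and 3.89% of the summed Fringe TPM, from control to DKO, while Mfng made up 59.0%, 66.3%, 66.7% and 72.0%. These shares do not depend on how the libraries were scaled to each other.

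Otic epithelium is known to express Lfng, and the summed level of its 8 markers followed the same order of libraries. The single markers did not all do so. In DKO against Pou4f1KO, 3 of the 8 were higher and 5 lower, and Oc90 was at 35.0 against 12.8 TPM (log2 ratio 1.39). The 8 markers were at least 2-fold lower than control in 1 case (Isl1CKO), 7 cases (Pou4f1KO) and all 8 cases (DKO). Of all compared genes, 1.20%, 2.70% and 3.35% were past 2-fold either way in these comparisons. The markers' median log2 ratios were −0.69, −1.91 and −1.95, against −0.02, 0.02 and −0.01 for all genes, and none of the 8 was at 0. This list was also chosen with earlier results known, so its counts and medians are descriptions only. Epcam, an epithelial adhesion molecule, was at 87.8, 51.8, 20.2 and 13.7 TPM. Sox2, a prosensory and progenitor factor, was at 72.2, 50.0, 64.2 and 31.6 TPM, an order shared with Jag1 and not with Lfng. Between control and DKO the summed otic list differed more, from 568 to 135 TPM, than Lfng did. The part of otic epithelial cells in the Lfng level was not tested.

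**Figure D3:**
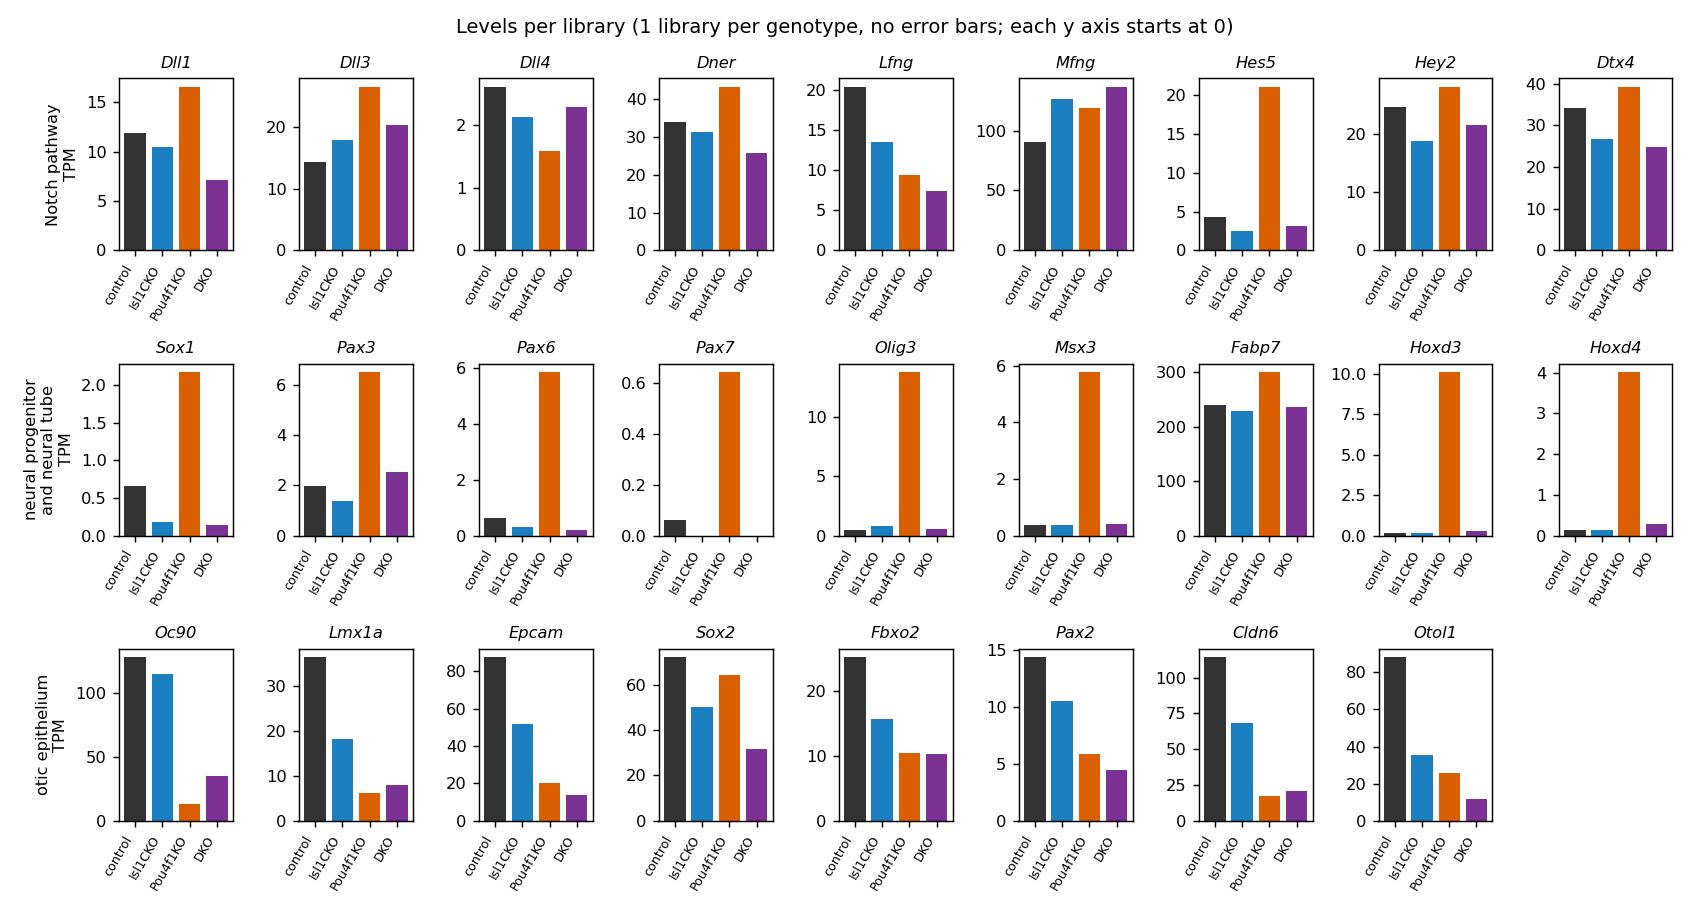
TPM (bars, each y axis from 0) in the 4 libraries for the 9 members that spread at least 1.5-fold (top row), the 9 neural progenitor and neural tube markers (middle row) and the 8 otic epithelium markers (bottom row). Hes5 and all 9 middle-row markers are highest in Pou4f1KO, and Lfng and all 8 bottom-row markers are highest in control.

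The core machinery hardly differed. Rbpj, the DNA-binding partner of the receptor, was at 88.2, 87.7, 96.3 and 92.7 TPM. The Mastermind co-activator genes Maml1 (23.3, 23.6, 22.5 and 23.2 TPM), Maml2 (9.84, 9.55, 8.73 and 9.70 TPM) and Maml3 (12.7, 14.1, 14.8 and 16.2 TPM) spread by 1.05-fold, 1.13-fold and 1.27-fold. Ncstn, which encodes the gamma-secretase subunit nicastrin, was at 108, 112, 120 and 120 TPM. Adam10, the protease of the first cut, was at 136, 136, 147 and 150 TPM. In these 6 genes of the complex and of receptor cleavage, no ratio in any comparison reached 1.5-fold. For Rbpj and Maml2 the deposited coverage was 0.13 and 0.14 of what their FPKM and the depth of the library imply, and the reason was not tested.

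Regulators of receptor traffic were also steady. Numb, an endocytic inhibitor of Notch, was at 47.4, 47.1, 44.7 and 44.1 TPM, and its relative Numbl at 79.5, 82.5, 81.3 and 79.9 TPM. The Deltex genes encode ubiquitin ligases that act on Notch: Dtx3 was at 150, 166, 161 and 162 TPM, and Dtx1 at 3.04, 2.65, 3.27 and 3.09 TPM. Dtx4 was the exception in the group, at 34.2, 26.7, 39.3 and 24.9 TPM, with both libraries of the Isl1 label below the other pair and a log2 ratio of −0.64 between DKO and Pou4f1KO.

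The difference tied to the Isl1 label could be read in both Pou4f1 backgrounds, from Isl1CKO against control and from DKO against Pou4f1KO, which have no library in common. Of the 32 members, 15 (46.9%) were lower in both pairs, 7 (21.9%) were higher in both and 10 (31.2%) went opposite ways. Over all compared genes the shares were 33.9%, 22.4% and 43.6%. With median-of-ratios scaling, 12 members were lower in both (37.5%, against 28.9% of all genes) and 9 were higher in both (28.1%, against 27.5%). With pan-neuronal scaling, the members lower in both numbered 11 (34.4%, against 18.8% of all genes). Notch1, Dll1, Jag1, Dner, Lfng, Hes5, Hey1, Hey2 and Dtx4 were lower in both pairs under each of the 3 scalings, which is 28.1% of members against 15.5% of all genes. Their ratios in Isl1CKO were small, from −0.08 for Hey1 to −0.61 for Hes5, and those of Dll1 (−1.11) and Hes5 (−2.43) in DKO against Pou4f1KO were the 2 past 2-fold. Of the genes lower under each scaling, Notch1, Dll1, Dner, Hes5, Hey2 and Dtx4 were highest in Pou4f1KO, and Jag1, Lfng and Hey1 in control. Pou4f1KO is the library that stood apart in neural tube markers, and its part in the second pair was not tested. Mfng, Maml3, Hes6 and Dtx3 were higher in both pairs under each scaling, 12.5% of members against 11.9% of all genes.

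The difference tied to the Pou4f1 label was read from Pou4f1KO against control and from DKO against Isl1CKO. Of the 32 members, 8 (25.0%) were lower in both pairs, 13 (40.6%) were higher in both and 11 (34.4%) went opposite ways, against 26.5%, 33.7% and 39.8% of all genes. With pan-neuronal scaling the numbers were 9, 3 (9.38%) and 20 (62.5%), against 28.8%, 13.7% and 57.4% of all genes. Lfng was lower in both, with log2 ratios of −1.04 and −0.79. Dll3 (0.84 and 0.17) and Mfng (0.39 and 0.12) were higher in both under each scaling. Hes5 was also higher in both, but by 2.04 in 1 pair and 0.21 in the other. Dll1 went opposite ways, at 0.44 and −0.50, and so did Dner (0.34 and −0.27).

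**Figure D4:**
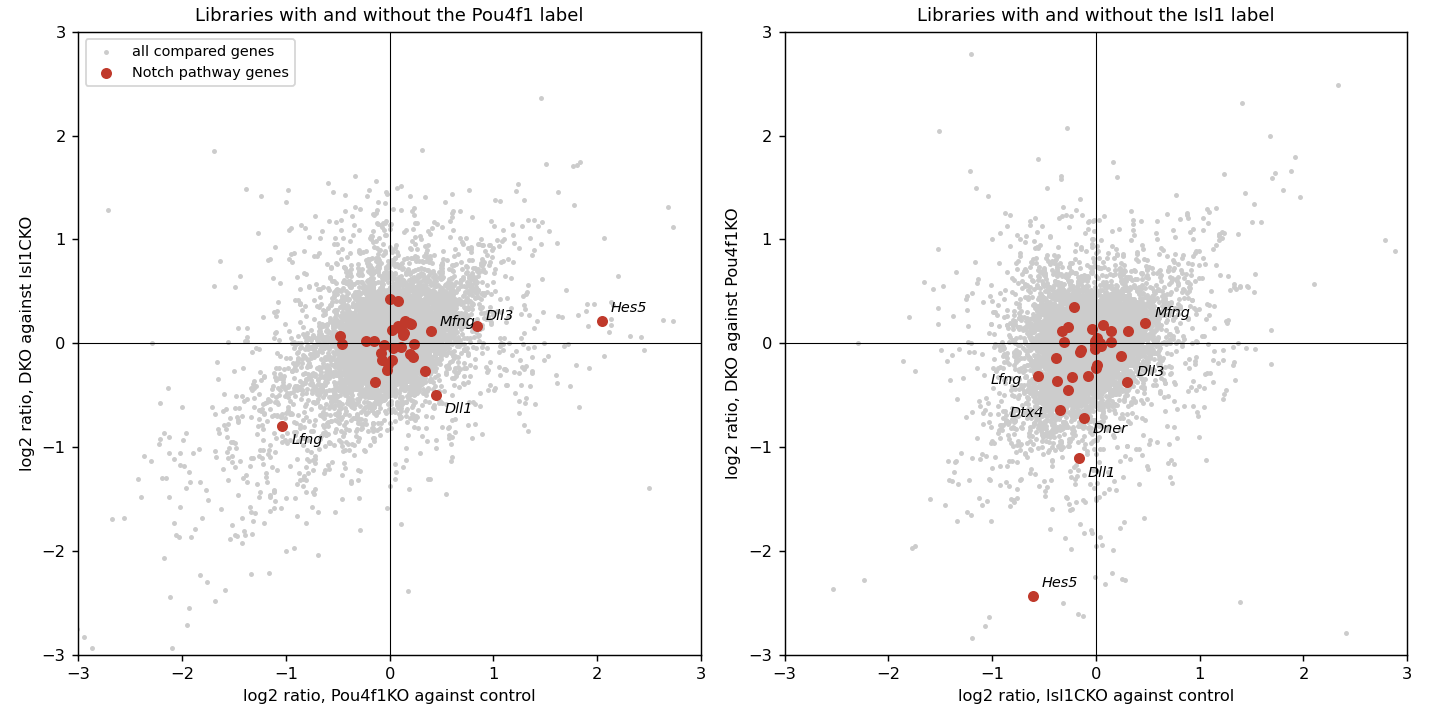
Log2 ratio tied to the Pou4f1 label (left) and to the Isl1 label (right), without the other label on the x axis and with it on the y axis, for all compared genes (grey) and the members (red). Axes run from −3 to 3, which leaves 14 genes outside the left panel and 8 outside the right. Lfng is low on both axes of the left panel, and Hes5 has 1 large and 1 small ratio in each panel.

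The departure from additivity is the log2 ratio of DKO to control minus the sum of those of both single mutants, so it uses all 4 libraries and leaves no degrees of freedom. Hes5 had a departure of −1.83: the single-mutant ratios would add to 13.5 TPM in DKO, where 3.09 TPM was measured. It was the only member past 1 in size, where 2.52% of all genes were. Dll1 had −0.94 (14.7 TPM by addition, 7.14 TPM measured), Dll3 −0.67 and Dner −0.61. With pan-neuronal scaling the departures were −1.56 for Hes5, −0.66 for Dll1, −0.38 for Dll3 and −0.31 for Dner. These 4 genes were each highest in Pou4f1KO, the library that also stood apart in neural tube markers. Lfng had a departure of 0.24, with 6.09 TPM by addition and 7.38 TPM measured.

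A wider list of 40 Notch-related genes, none of them members, gave the surroundings of the pathway: other gamma-secretase subunits, ligand ubiquitin ligases, receptor glycosyltransferases, co-repressors and further Hes genes. Of these, 38 were measured, and 1 passed 2-fold. It did so in Isl1CKO against control, DKO against control and DKO against Pou4f1KO, where 1.20%, 3.35% and 1.76% of all genes did. The count of the list was therefore near that of all genes. Tle2, a Groucho co-repressor used by Hes proteins, had a level of 14.0 TPM in the control library, then 47.6 (Isl1CKO), 15.3 (Pou4f1KO) and 48.1 TPM (DKO). Both libraries with the Isl1 label were high and the other pair was low, with log2 ratios of 1.70 for Isl1CKO against control and 1.59 for DKO against Pou4f1KO. The remaining 37 measured genes lay between 2-fold limits in all 5 comparisons and in the departure. Medians of the list's log2 ratios to control were 0.01 (Isl1CKO), 0.05 (Pou4f1KO) and −0.00 (DKO).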

How the data were processed

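RNA of 4 cochleovestibular ganglion samples, 1 per genotype label, was extracted with Trizol and made into strand-specific libraries, per the labels' protocols. The submitters' processing notes name the build mm10 and the tools HISAT2, StringTie, SAMtools, Trimmomatic and FastQC. Their versions and settings, and the annotation, are not given in the sources used here. Tables deposited for each library give 3 values per gene, per the file headers: TPM, which the authors computed and which is used throughout; FPKM, deposited beside it and used as an alternative; and coverage, the mean read depth over a gene in the deposited tables, used for depth. Coverage divided by FPKM gave the aligned gigabases. No read counts were used, so no interval or detection limit was computed.

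Rows sharing a symbol were summed. Genes with 1 TPM in at least 1 library were compared, by log2 ratios with a pseudocount of 1, and called at 2-fold, with 1.5-fold as a second size. With 1 library per group no p-value was computed. The members and all lists were chosen with earlier results of these data known, so no list supports a result on its own. All members could be named. From other lists, up to 4 genes past 2-fold per comparison with at least 5 TPM in the higher library were named. Fabp7, Pax7, Ctbp2, Tubb3, Stmn2 and Ntrk3 were chosen after their values were seen. Alternatives were pseudocounts of 0.1 and 5, FPKM, other filters, the highest row per symbol, median-of-ratios and pan-neuronal scaling, and the 1.5-fold size. Exon numbers came from GENCODE M21, promoters from the RefSeq table (GRCm38.p6). Of the members, 2 overlap a microRNA gene on the same strand (Notch1, Jag2) and 5 a gene on the other strand. Ratios were tested on simulated data. Python 3.11.15, numpy 2.4.6, pandas 2.3.3 and matplotlib 3.10.9 were used.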

Additional observations from a re-analysis of the deposited data

How the results depend on the processing

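The members' values were recomputed under every alternative: of 1536 log2 values, 1530 kept their side of 2-fold, 5 were no longer past it and 1 newly passed it. The other filters and the highest row per symbol could not change a member's value, because all 32 had 1 row and reached 1 TPM in all 4 libraries. Their values are part of the 1530, so this number overstates how steady the members were. The sign changed in 71, of which 50 were under pan-neuronal scaling. None of the 71 had a size above 0.295 as reported. Median-of-ratios scaling changed no count or median of the members or the wider list beyond the limits used (1.5 times, or 0.1 in log2). The filters and the highest row per symbol changed none of the wider list beyond them. With a pseudocount of 5 or with FPKM, the members past 2-fold were 1 in Pou4f1KO against control and 1 in DKO against Pou4f1KO, because Lfng (−0.82 and −0.95) and Dll1 (−0.83 and −0.92) dropped under the limit. A pseudocount of 0.1 gave 2 wider-list genes in Isl1CKO against control and 1 in DKO against Isl1CKO. At 1.5-fold the members numbered 1, 3, 1 and 4 in Isl1CKO and DKO against control and in DKO against Isl1CKO and against Pou4f1KO, and the wider list had 3 in Isl1CKO against control and 1 in DKO against Isl1CKO. Pan-neuronal scaling shifted the median of all genes by −0.11, −0.23, −0.06, 0.05 and 0.17 in the 5 comparisons (the 3 against control, then DKO against Isl1CKO and Pou4f1KO). Under it the members' medians were −0.17 in Isl1CKO and −0.15 in Pou4f1KO against control and 0.11 in DKO against Pou4f1KO, the last 2 with changed sign; 1 member (Hes5) was past 2-fold in DKO against Pou4f1KO, Dll1 being at −0.94. The wider list's medians there were −0.10, −0.19 and 0.13.

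Over all genes, the counts past 2-fold were 181, 407, 504, 316 and 265 in the same 5 comparisons, against 507, 792, 948, 730 and 616 with a pseudocount of 0.1, 36, 118, 178, 71 and 65 with 5, and 61, 209, 261, 133 and 111 with FPKM. No paired analysis was possible because each genotype has 1 library. The same lack of replicates leaves library-to-library error unknown for every difference. Deposited coverage was lowest for Maml2 in each library (6.73 to 8.30), but it was 0.14 of what the FPKM of Maml2 implies. By TPM the lowest member was Dll4 (1.59 to 2.62 TPM), with a coverage of 9.17 to 15.5.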

Other observations

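The library in which a member was highest was control for 8, Isl1CKO for 6, Pou4f1KO for 11 and DKO for 7, and over all compared genes the shares were 27.5%, 17.8%, 32.8% and 21.9%. The lowest library was control for 8 members, Isl1CKO for 9, Pou4f1KO for 5 and DKO for 10. The shares of all compared genes lowest in these libraries were 26.04%, 27.75%, 22.42% and 23.79%, in the same order. Ctbp2, a co-repressor gene of the wider list chosen after its values were seen, had levels of 189 (control), 195 (Isl1CKO), 135 (Pou4f1KO) and 131 TPM (DKO), so the pair with the Pou4f1 label was lower.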
